A study of Mus musculus with 2 samples.

Results

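The 6 genes Pde3b, Pde4a, Pde4b, Pde4d, Pde7a and Pde8a encode cyclic nucleotide phosphodiesterases that break down cAMP. They were taken by name from the 32285 genes counted in each library, all 6 were found there, and they were read in lung group 2 innate lymphoid cells (ILC2s). They belong to a wider family, of which 21 catalytic genes were counted. cAMP forms when a receptor coupled to the stimulatory G protein activates an adenylyl cyclase, and phosphodiesterases are the enzymes that remove it again by opening its ring to give AMP. The families differ in substrate and in regulation. PDE4 enzymes, the targets of rolipram and roflumilast, and PDE7 and PDE8 enzymes act on cAMP alone, whereas PDE3 enzymes act on cAMP and are held back by cGMP. In lymphocytes a rise in cAMP drives CREB-dependent genes and restrains activation, and the phosphodiesterases set how long such a rise lasts.

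The study asked how loss of the phosphatase PAC1, the product of Dusp2, alters lung ILC2s and their response to calcitonin gene-related peptide (CGRP), a neuropeptide whose receptor signals through cAMP. ILC2s from WT mice and from Pac1-/- mice, in which Dusp2 is disrupted, were sorted by a gate on live cells that carry CD90.2, ST2 and Sca-1 but no lineage marker, from mice 6 to 8 weeks old on a C57BL/6J background. They were freshly isolated and not treated with any agent. For each genotype the cells of 4 to 5 mice were pooled, 13000 cells were loaded, and 1 droplet 3' library was made, with no label that ties a cell to a mouse. With 1 library per genotype there was no replicate check and no test, and a difference between the libraries and an effect of the genotype cannot be told apart. All intervals are 95% intervals and cover counting error only. The deletion is not restricted to ILC2s, and the pools do not separate a difference that arises within ILC2s from one that arises through other cells.

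Barcodes were kept where 500 genes or more were detected and no more than 10% of the UMIs (unique molecular identifiers, each standing for 1 captured transcript) were mitochondrial, which left 8394 of 10866 WT and 7087 of 9495 Pac1-/- barcodes. These held 54579034 and 58338886 UMIs, with medians of 4186.5 and 5577 UMIs per cell. Dusp2 was counted 1419 times in the WT and 5 times in the Pac1-/- library, at 26.0 and 0.0857 CPM (UMIs of a gene per 1000000 UMIs of the library), as the labels have it. UMIs of at least 2 of 8 ILC2 markers were present in 98.1% of the cells of each library, and every one of the 8 was detected. The 5 T cell markers summed to 22.8 CPM in WT and 11.2 CPM in Pac1-/- cells, and 1 of the 5 was at 0 in each. The sums of some other marker lists were higher in Pac1-/- cells, such as those of mast cells and basophils at 28.4 against 13.2 CPM, of epithelial cells at 79.0 against 53.9, of macrophages and monocytes at 7.20 against 2.49 and of B cells at 14.2 against 7.40. The part of these markers in the results was not tested. The 4 globin genes, read as free erythroid RNA, summed to 76.1 and 269 CPM. The libraries shared 29 barcodes, of which 15 were among the kept cells of each.

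All 6 members were matched by identifier to the GENCODE annotation of GRCm38, the genome the counts were made on, and all are protein coding. Pde7a (ENSMUSG00000069094) spans bases 19223108 to 19311322 of chromosome 3 on the minus strand. Pde4b (ENSMUSG00000028525) lies on chromosome 4 from 102087543 to 102607259, and Pde3b (ENSMUSG00000030671) on chromosome 7 from 114415281 to 114539251. Pde8a (ENSMUSG00000025584) is also on chromosome 7, from 81213596 to 81334533. Pde4a (ENSMUSG00000032177) is on chromosome 9 from 21165714 to 21213248, and Pde4d (ENSMUSG00000021699) on chromosome 13 from 108449948 to 109953461. These 5 genes are on the plus strand. The PDE4 genes carry many annotated transcripts, 5 for Pde4a, 13 for Pde4b and 20 for Pde4d, and a 3' count sums them, so isoforms of 1 gene were not separated. Pde4d, 1504 kb long, overlaps a ribosomal protein pseudogene (Rps3a3) and 2 microRNA genes on its own strand, all outside its exons. Pde7a shares exonic bases with an antisense gene, Gm16093.

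Promoter windows from RefSeq (build GRCm38.p6) were matched for 4 of the 6 members, 9 windows in all, and not for Pde3b and Pde7a. Windows with the core of a cAMP response element are shown because Crem, whose product binds it, is used below to divide the cells. In the 250 bases before each start the full cAMP response element, TGACGTCA, the palindromic site bound by CREB and CREM, was searched, and also its 5-base core TGACG on either strand, which the full site contains. None of the 9 windows held the full element, which 1.55% of 32851 promoters held. The core was found in 3 of the 9, against 17.8% of all promoters, and in capitals below the bases of the core are marked as read on the plus strand.
Pde4a, the second of 3 promoters, chr9:21184039-21184067, plus strand, core 50 bases before the start: ggcacagctcgaCGTCAggctggggagga
Pde4b, the first of 4 promoters, chr4:102421509-102421537, plus strand, core 34 bases before the start: gatttggctgcaCGTCAattttctcatct
Pde8a, its only promoter, chr7:81213169-81213197, plus strand, core 84 bases before the start: gctgctttgcatTGACGccagcagccgct
The single Pde4d window held no core. The Pde4a and Pde4b sites are read on the minus strand and the Pde8a site on the plus strand. The stretch of 29 bases shown for Pde4b overlaps an exon that GENCODE gives to that gene. A match of letters is a description of the window and not a measured site.

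To learn which of these enzymes lung ILC2s transcribe most, UMIs were summed over the cells of each library. Levels of different genes are compared here because a 3' library counts a transcript once whatever its length. Pde7a, a cAMP-specific enzyme of high affinity, led in both libraries, at 172 CPM in WT (95% Poisson interval 169 to 176, 9411 UMIs) and 238 CPM in Pac1-/- cells (234 to 242, 13908 UMIs). It made up 38.8% of the UMIs of the 21 genes in WT (exact binomial interval 38.2 to 39.4) and 48.3% in Pac1-/- cells (47.8 to 48.9).

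Pde4b, the main PDE4 gene of activated leukocytes, followed among the members at 83.9 CPM in WT (81.5 to 86.4) and 63.5 CPM in Pac1-/- cells (61.4 to 65.6). Pde3b, best known for its part in the action of insulin on fat cells, stood at 53.2 CPM (51.3 to 55.2) and 62.6 CPM (60.6 to 64.7). Pde4b was thus above Pde3b in WT, whereas in Pac1-/- cells their intervals overlapped. The other 3 members were lower. Pde4d was measured at 23.6 CPM (22.3 to 24.9) in WT and 18.5 CPM (17.4 to 19.6) in Pac1-/- cells, and Pde8a, another high-affinity cAMP enzyme, at 15.8 CPM (14.8 to 16.9) and 14.4 CPM (13.4 to 15.4). Pde4a was the lowest member, at 7.46 CPM (6.75 to 8.22) and 4.18 CPM (3.67 to 4.74). Apart from Pde4b and Pde3b in Pac1-/- cells, no neighbours among the 6 had overlapping intervals within a library.

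The members did not hold all of the family's transcripts. They summed to 80.2% of the UMIs of the 21 genes in WT and 81.4% in Pac1-/- cells, and most of the remainder was Pde7b, the paralog of Pde7a and not a member. Pde7b was read at 71.1 CPM (68.9 to 73.4) in WT and 76.5 CPM (74.2 to 78.7) in Pac1-/- cells, between Pde4b and Pde3b in WT and above Pde4b in Pac1-/- cells. The PDE7 pair together made up 54.8% and 63.8% of the family. Of the other genes with at least 50 UMIs, Pde11a, at 4.31 and 4.06 CPM, was the highest, and its interval in Pac1-/- cells (3.56 to 4.61) overlapped that of Pde4a. Pde1c, Pde10a, Pde1b, Pde2a, Pde5a and Pde4c lay between 0.330 and 3.55 CPM in WT and between 0.583 and 3.03 CPM in Pac1-/- cells. The 5 genes for enzymes that act on cGMP alone gave 56 of 24253 family UMIs in WT and 99 of 28771 in Pac1-/- cells.

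**Figure D1:**
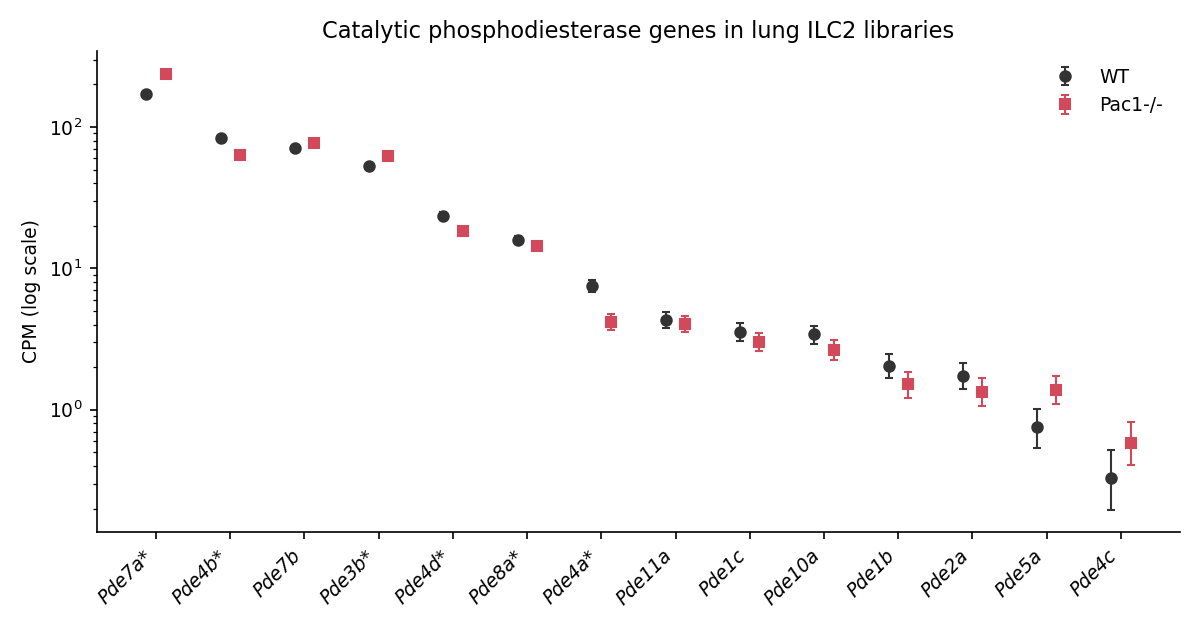
CPM (log axis) of the 14 catalytic phosphodiesterase genes with at least 50 UMIs over both libraries, in WT (circles) and Pac1-/- (squares) cells, with exact Poisson intervals. Asterisks mark the 6 members, of which Pde7a stood at 172 and 238 CPM and Pde4a at 7.46 and 4.18 CPM.

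Per cell these levels were low. A cell held on average 2.32 UMIs of the 6 members in WT and 3.31 in Pac1-/- cells, and 73.0% and 81.2% of cells had at least 1. After every cell was thinned at random to 1500 UMIs, so that cells of unequal depth could be compared (7634 WT and 6564 Pac1-/- cells, with 760 and 523 shallower cells left out), a Pde7a UMI was seen in 21.8% (20.9 to 22.8) of WT and 28.2% (27.1 to 29.3) of Pac1-/- cells. Before thinning these shares were 52.5% and 67.8%. Pde4b was seen in 9.8% and 8.0% of the thinned cells (30.6% and 28.6% before thinning), and Pde4a in 1.03% and 0.579% (4.23% and 3.1%). Cells with at least 3 of 5 B cell markers, 8 in WT and 21 in Pac1-/- with median depths of 3664.5 and 4470 UMIs, held Pde7a in 4 and 12 cells and Pde4b in 5 and 11 cells before thinning. They did not lack these genes and gave no background level, so the text relies on CPM. UMIs of 2 or more members were found together in 36.9% of WT and 44.8% of Pac1-/- cells before thinning.

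The comparison of the genotypes asked whether this make-up differed without PAC1. Ratios are log2 of Pac1-/- over WT CPM and are given relative to the median gene, which stood 0.19 above 0 over the 12427 genes with at least 50 UMIs, with exact conditional binomial intervals. A gene counted as past the fold when it lay at least 1.5 times above or below the median gene. Of the 6 members, 2 were past the fold, both lower in Pac1-/- cells, against 12.8% of all genes compared that were lower and 8.22% that were higher. The count fell to 1 under 7 of 11 alternatives, in each of which Pde4b lay inside the fold, as without predicted doublets, at -0.57, and on thinned cells, at -0.49. The median over the members was -0.43, beside 0 over all genes by construction.

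The 3 members of the PDE4 group were all lower in the Pac1-/- library. Pde4a, with 407 UMIs in WT and 244 in Pac1-/- cells, had the lowest ratio of the 6, at -1.02 (-1.26 to -0.79), 2.03 times lower. Pde4b had 4581 and 3703 UMIs and a ratio of -0.59 (-0.65 to -0.53), 1.51 times lower and just past the fold. Pde4d, with 1289 and 1078 UMIs, was just inside it at -0.54 (-0.66 to -0.42), 1.46 times lower. The fold thus parted 2 genes whose intervals overlapped. As counted, without reference to the median gene, the ratios were -0.83, -0.40 and -0.35, and only Pde4a was past the fold. Genes that cell handling can induce differed between the libraries too. Of 15 genes that tissue dissociation is known to induce, 12 lay above the median gene in Pac1-/- cells, each with its interval above 0. The other 3 lay below, each with its interval below 0. Past the fold were 1 higher and 2 lower, against 8.22% and 12.8% of all genes. The median over the 15 was 0.19, between the quartiles of all genes, -0.31 and 0.28. The median mitochondrial share of a cell was 3.27% in Pac1-/- and 2.50% in WT cells. Their part in these ratios was not tested.

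The other 3 members lay closer to the median gene. Pde8a was at -0.32 (-0.46 to -0.19), Pde3b at 0.05 (-0.02 to 0.12) and Pde7a at 0.28 (0.24 to 0.32), 1.21 times above the median gene. As counted, Pde7a was 0.47 higher on the log2 scale and Pde3b 0.24 higher. Pde7b was at -0.08 (-0.15 to -0.02) relative to the median gene and at 0.10 as counted, so its direction depended on the scale. None of these reached 1.5 times either way. Over the 14 family genes with at least 50 UMIs, 2 were higher past the fold (Pde5a, with 41 and 81 UMIs, and Pde4c, with 18 and 34) and 3 lower (Pde4a, Pde4b and Pde1b). Of all genes compared, 8.22% were higher and 12.8% lower past it. The ratio of Pde4c, 0.63 (-0.23 to 1.55), had an interval that included 0.

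Summed over the 21 genes, phosphodiesterase transcripts amounted to 444 CPM in WT and 493 CPM in Pac1-/- cells, a ratio of 0.15 as counted and of -0.04 (-0.06 to -0.01) relative to the median gene. The make-up of that sum differed by more. Pde4a, Pde4b and Pde4d together took 25.9% of it in WT (25.3 to 26.4) and 17.5% in Pac1-/- cells (17.0 to 17.9), and the PDE7 pair took 54.8% (54.2 to 55.4) and 63.8% (63.3 to 64.4). The share of genes for enzymes that act on cAMP alone was 84.4% in both libraries.

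**Figure D2:**
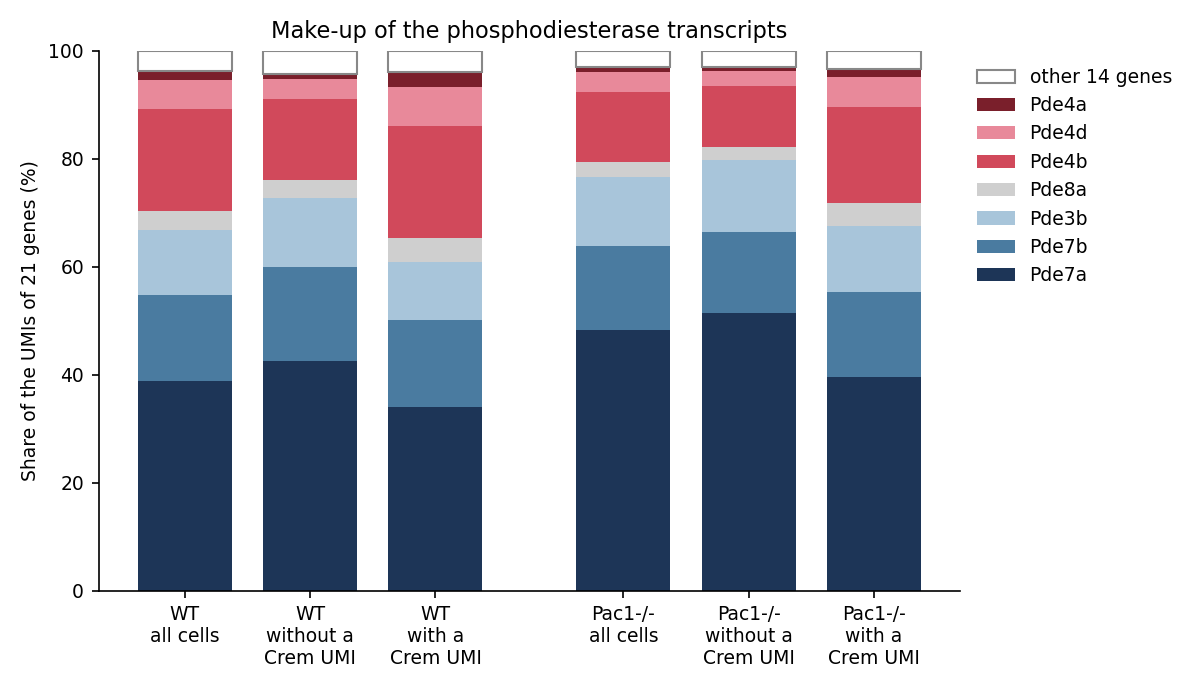
Share (%) of each gene in the UMIs of the 21 catalytic phosphodiesterase genes, for all cells and for thinned cells without and with a Crem UMI, in WT (left) and Pac1-/- (right). Pde4a, Pde4b and Pde4d (red tones) together took 25.9% in all WT and 17.5% in all Pac1-/- cells, and in each library more in cells with a Crem UMI than in cells without.

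Cells were next divided by whether they carried a UMI of Crem, which encodes a transcription factor whose inducible form is made in response to cAMP, to see which members went with it within 1 library. Crem was itself lower in Pac1-/- cells, at 222 against 451 CPM. After thinning, a Crem UMI was left in 2495 of the 7634 WT cells (32.7%, 31.6 to 33.7). In the Pac1-/- library it was left in 1288 of 6564 (19.6%, 18.7 to 20.6). Before thinning the shares were 54.0% and 40.8%, and of the cells with B markers 2 of 8 and 10 of 21 had one. Ratios here are cells with over cells without a UMI, relative to the median gene of that split. In WT 4 of the 6 members were past the fold and higher in cells with Crem, against 8.75% of 8973 genes. In Pac1-/- cells 3 of the 5 members that reached 50 UMIs were, against 10.3% of 8939 genes. None was lower past the fold, which 7.68% and 9.26% of genes were. The WT count fell to 3 under 4 of 11 alternatives, in 1 of them because Pde4a had under 50 UMIs.

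Pde4a showed the largest ratio in WT, at 4.28 CPM (2.95 to 6.01) in cells without and 12.8 CPM (9.46 to 17.0) in cells with Crem, a log2 ratio of 1.80 (1.13 to 2.49). In Pac1-/- cells it rested on 38 UMIs, under the minimum of 50, with 3.29 and 6.21 CPM and a ratio of 1.17 (0.05 to 2.20). On all UMIs of a cell, which gave 244, that ratio was 1.42 (0.98 to 1.87), and on barcodes with ILC2 markers and no other marker, with 16 UMIs, 0.39 (-2.06 to 2.25). The gene with the nearest pattern was Pde4d. It went from 15.2 CPM (12.6 to 18.2) to 32.9 CPM (27.3 to 39.2) in WT, a ratio of 1.34 (0.96 to 1.71), and from 13.4 to 26.4 CPM in Pac1-/- cells, a ratio of 1.23 (0.72 to 1.72).

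Pde4b was higher in cells with Crem by less. Its levels were 63.8 CPM (58.3 to 69.7) and 94.6 CPM (85.0 to 105) in WT, a ratio of 0.79 (0.59 to 0.99), and 54.0 and 82.3 CPM in Pac1-/- cells, a ratio of 0.86 (0.59 to 1.12). Pde8a lay close to it, at 0.82 (0.38 to 1.27) in WT and 0.95 (0.36 to 1.5) in Pac1-/- cells. In WT neither call held under every setting, since Pde4b came to 0.57 as counted and 0.58 at 1000 UMIs a cell, and Pde8a to 0.54 without thinning. In Pac1-/- cells Pde8a came to 0.55 (-0.05 to 1.12) with another random seed, inside the fold. The count of members stayed at 3 there because Pde4a reached 50 UMIs. The intervals of all 4 genes left out 0 in WT, and in each of them the 2 libraries' intervals overlapped.

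Pde7a and Pde3b, which lead the family with Pde4b and Pde7b, did not follow Crem. Pde7a stood at 179 CPM in WT cells without and 155 CPM in those with Crem, a ratio of 0.01 (-0.13 to 0.16), and at 246 and 184 CPM in Pac1-/- cells, a ratio of -0.17 (-0.34 to -0.01). The ratio of Pde3b was 0.08 (-0.18 to 0.33) in WT and 0.11 (-0.20 to 0.41) in Pac1-/- cells. The direction of Pde7a in both libraries and of Pde3b in both depended on the setting, and none of the ratios of either gene was past the fold under any of them. Pde4a, Pde4b and Pde4d together took 30.7% of the family's UMIs in WT cells with Crem (28.5 to 32.9) and 19.8% in those without (18.4 to 21.2), and in Pac1-/- cells 24.7% (21.9 to 27.6) and 14.8% (13.7 to 16.0). The 21 genes summed to 457 CPM (436 to 479) in WT cells with and 421 CPM (406 to 435) in those without Crem, intervals that did not overlap, while the median gene of that split was at -0.22. In Pac1-/- cells they summed to 465 CPM (435 to 497) and 478 CPM (463 to 493), with the median gene at -0.25.

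The classes differed in more than Crem. Before thinning, cells with a Crem UMI had a median of 5215 UMIs in WT and 6775 in Pac1-/-, against 4183 and 5662 in cells without. The 8 ILC2 markers summed to 4971 and 3927 CPM in WT cells with and without Crem and to 5198 and 4167 CPM in Pac1-/- cells. Erythroid RNA was at 45.2 and 61.4 CPM in WT and at 447 and 230 CPM in Pac1-/- cells. The T cell markers were at 20.0 and 19.5 CPM in WT and at 17.1 and 10.6 CPM in Pac1-/- cells. The 15 dissociation genes summed to 18681 and 19195 CPM in WT and to 22648 and 23135 CPM in Pac1-/- cells with and without Crem. Relative to the median gene, 8 of the 15 lay above and 7 below in WT, and 11 above and 4 below in Pac1-/- cells, 9 of the 11 with the interval above 0. The part of these differences in the ratios was not tested.

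**Figure D3:**
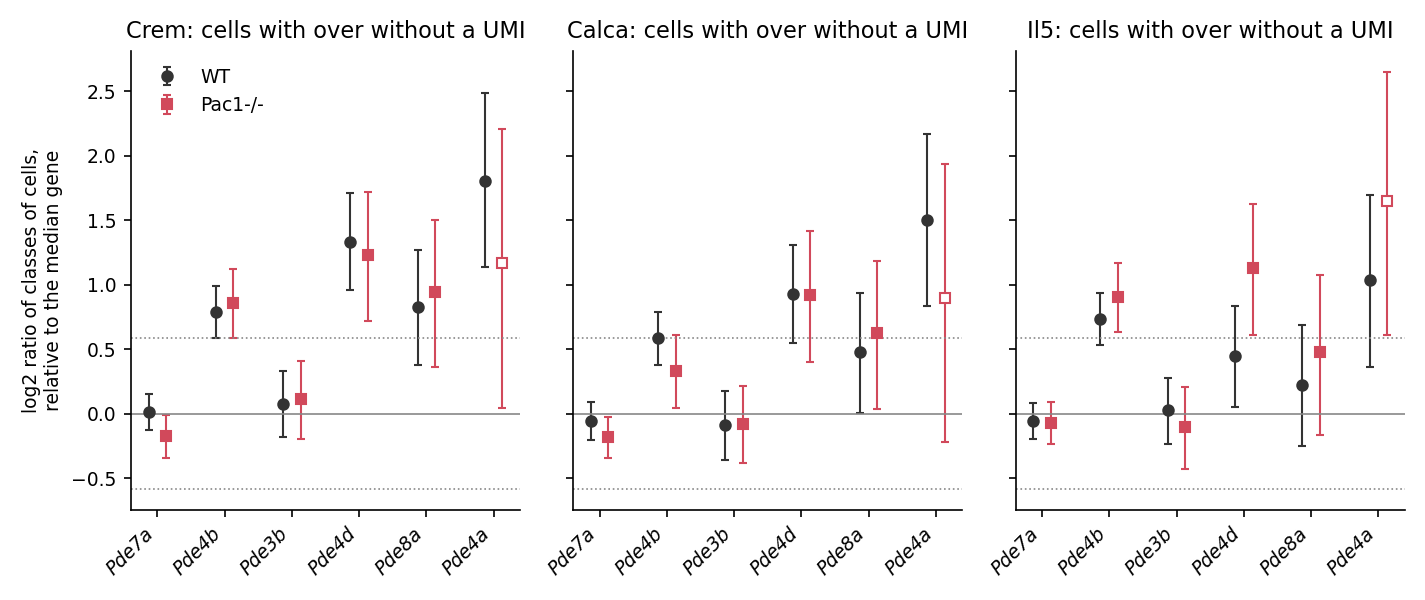
Log2 ratio of cells with over cells without a UMI of Crem, Calca or Il5, relative to the median gene of each split, for the 6 members in WT (circles) and Pac1-/- (squares) cells with exact intervals. Open symbols rest on under 50 UMIs, dotted lines mark 1.5 times, and Pde7a and Pde3b stay near 0 in all panels whereas Pde4a reached 1.80 for Crem in WT.

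The WT cells allowed a finer division by the number of Crem UMIs. Pde4a was at 4.28 CPM in the 5139 cells with none, 9.49 CPM in the 1405 with 1, 17.5 CPM (9.77 to 28.8) in the 573 with 2 and 16.8 CPM (8.93 to 28.7) in the 517 with 3 or more. Pde4d followed the same course, at 15.2, 28.5, 39.6 and 37.4 CPM, and Pde4b was at 63.8, 86.8, 112 and 96.7 CPM. For each of these 3 genes the last 2 classes did not differ beyond counting error. Pde8a was at 13.4, 17.6, 20.9 and 27.1 CPM. Pde7a was at 179, 163 and 179 CPM in the first 3 classes and at 107 CPM (85.2 to 133) in the last, where its interval overlapped that of Pde4b (76.1 to 121), so that no leading gene could be named there. In Pac1-/- cells Pde4d was at 13.4, 25.6 and 37.7 CPM in the first 3 classes and at 15.5 CPM (4.22 to 39.7) in the last, from 4 UMIs, and Pde4b was at 54.0, 73.7, 87.0 and 120.2 CPM. Pde4a had 2 UMIs in each of the last 2 classes. In the 172 Pac1-/- cells with 3 or more Crem UMIs, Pde7a and Pde4b had 31 UMIs each.

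**Figure D4:**
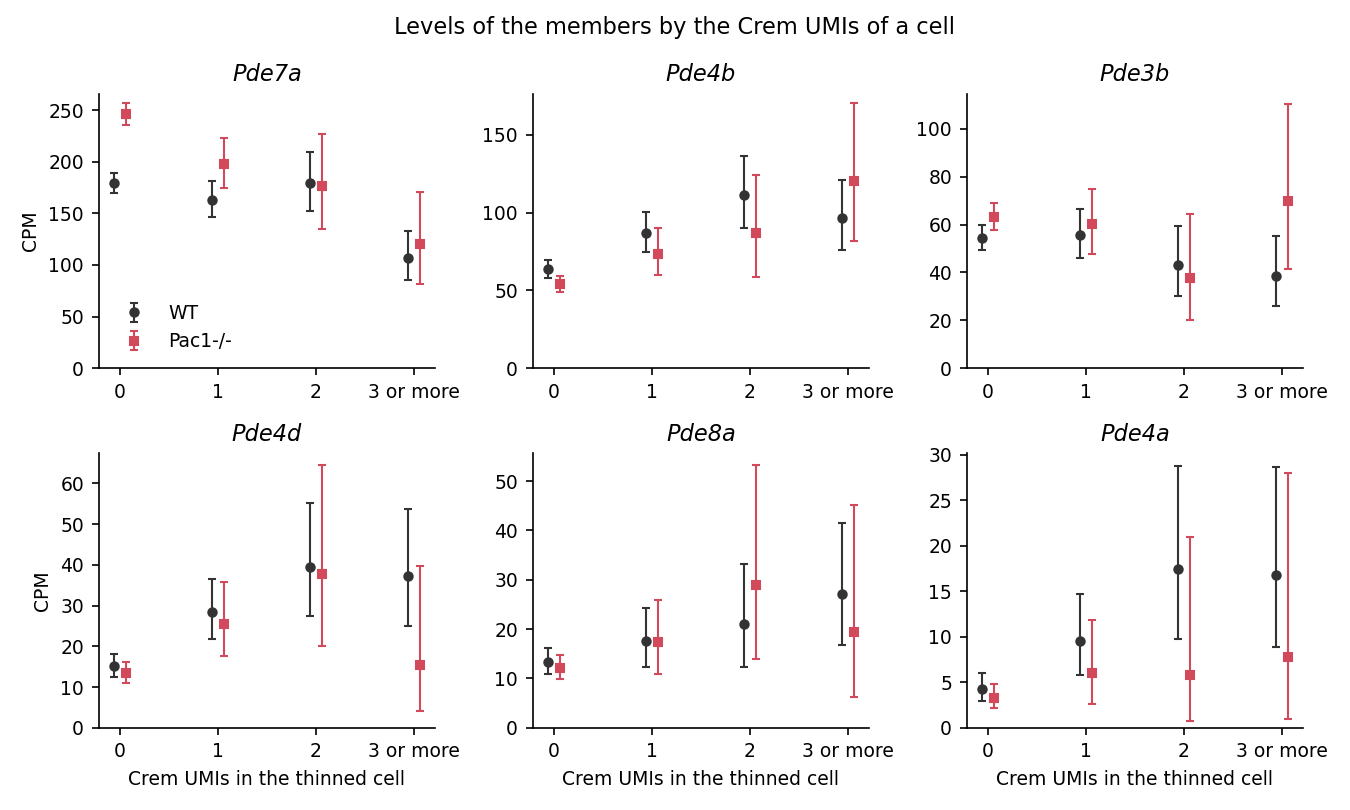
CPM of each member in thinned cells with 0, 1, 2 and 3 or more Crem UMIs, in WT (circles) and Pac1-/- (squares), with exact Poisson intervals and axes that start at 0. In WT, Pde4a went from 4.28 CPM at 0 to 16.8 CPM at 3 or more Crem UMIs and Pde7a from 179 to 107 CPM.

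Calca, the gene for CGRP, and Il5, the gene for the cytokine interleukin-5, were used in the same way. Both were lower in Pac1-/- cells, Calca at 351 against 493 CPM and Il5 at 405 against 718 CPM. A Calca UMI was present in 30.01% of thinned WT and 21.6% of thinned Pac1-/- cells, and an Il5 UMI in 32.8% and 19.2%. Before thinning the shares were 49.3% and 40.1% for Calca and 53.1% and 39.5% for Il5. Of the cells with B markers, 2 of 8 in WT and 3 of 21 in Pac1-/- had a Calca UMI, and 2 of 8 and 2 of 21 an Il5 UMI. By Calca, 3 of 6 members were past the fold in WT, all higher, against 7.26% of genes, and 2 of 5 in Pac1-/- cells, against 6.30%. By Il5, the counts were 2 of 6 against 6.24% and 2 of 5 against 8.14%. Over 11 alternatives the Calca counts ran from 2 to 4 in WT and from 1 to 3 in Pac1-/- cells, and the Il5 counts from 1 to 3 and from 2 to 3.

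In WT cells with a Calca UMI, Pde4a stood at 12.2 CPM (8.81 to 16.5) and in those without at 4.87 CPM (3.46 to 6.65), a ratio of 1.5 (0.84 to 2.17). In Pac1-/- cells it had 5.64 and 3.37 CPM, a ratio of 0.90 (-0.22 to 1.94) on 38 UMIs, and 0.17 (-2.28 to 2.03) on the 16 UMIs of barcodes with ILC2 markers alone. Pde4d had 29.4 and 17.3 CPM, a ratio of 0.93 (0.55 to 1.31), and in Pac1-/- cells 23.5 and 13.9 CPM, a ratio of 0.92 (0.40 to 1.41). Pde4b was at 0.59 (0.38 to 0.79) in WT, at the fold itself, and at 0.33 (0.04 to 0.61) in Pac1-/- cells. Pde8a was at 0.48 (0.01 to 0.93) and 0.62 (0.04 to 1.18), past the fold in Pac1-/- cells alone, and the difference between the libraries was not tested. At 1000 UMIs a cell the WT ratio turned to -0.19, and as counted the Pac1-/- ratio was inside the fold at 0.47. Pde3b, at -0.09 and -0.08, and Pde7a, at -0.06 and -0.18, lay near the median gene. The Calca classes also differed otherwise. Cells with Calca had medians of 5424 UMIs in WT and 6850 in Pac1-/- before thinning, against 4180 and 5634 in cells without. The ILC2 markers summed to 5005 and 3953 CPM in WT and to 5035 and 4185 CPM in Pac1-/- cells with and without Calca. Erythroid RNA was at 23.6 and 70.0 CPM in WT and at 424 and 231 CPM in Pac1-/- cells. The T cell markers were at 20.1 and 19.5 CPM in WT and at 16.9 and 10.5 CPM in Pac1-/- cells. Of the 15 dissociation genes, 5 lay above and 10 below the median gene in WT, and 14 above and 1 below in Pac1-/- cells, 8 of the 14 with the interval above 0. The part of these differences was not tested.

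In the division by Il5 the ratios stood in another order than by Crem, but in WT the intervals of Pde4a, Pde4b and Pde4d overlapped. The difference in order was not tested. Pde4b had 94.4 CPM (84.8 to 105) in WT cells with and 63.9 CPM (58.4 to 69.8) in those without an Il5 UMI, a ratio of 0.74 (0.54 to 0.94), and 86.6 against 53.1 CPM in Pac1-/- cells, a ratio of 0.90 (0.64 to 1.17). The WT ratio of Pde4b was inside the fold as counted, at 0.56, and at 1000 UMIs a cell, at 0.52. Pde4a had a ratio of 1.03 (0.37 to 1.70) in WT and, on 38 UMIs, of 1.65 (0.61 to 2.65) in Pac1-/- cells, which came to 1.08 (0.67 to 1.5) on the 244 UMIs before thinning and turned to -0.24 (-3.42 to 1.88) on the 16 UMIs of barcodes with ILC2 markers alone. Pde4d was at 0.45 (0.06 to 0.84) in WT and 1.13 (0.61 to 1.63) in Pac1-/- cells, with overlapping intervals. Pde8a (0.22 and 0.47), Pde3b (0.03 and -0.10) and Pde7a (-0.06 and -0.07) were inside the fold. Erythroid RNA was at 47.0 CPM in Pac1-/- cells with Il5 and 326 CPM in those without, the reverse of its order by Crem. In WT it was at 79.7 and 44.5 CPM. Whether few barcodes carried it was not tested. Cells with Il5 were also deeper, with medians of 5520 against 4145 UMIs in WT and 7307.5 against 5625.5 in Pac1-/-, and had higher ILC2 marker sums, at 4980 against 3922 CPM and 5120 against 4190 CPM. The T cell markers were at 20.8 and 19.1 CPM in WT and at 17.4 and 10.6 CPM in Pac1-/- cells with and without Il5. Of the dissociation genes, 11 of 15 lay below the median gene in WT, 9 of them with the interval below 0, and 7 of 15 in Pac1-/- cells. The part of these differences was not tested.

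The 3 status genes overlapped in the cells that carried them, and a joint division set them apart. The 3110 WT cells with none of the 3 had 3.43 CPM of Pde4a, 54.0 CPM of Pde4b and 13.1 CPM of Pde4d, and the 634 with all 3 had 15.8 (8.83 to 26.0), 94.6 (76.1 to 116) and 35.8 CPM (24.8 to 49.96). In the 816 WT cells with Crem alone Pde4d was at 30.2 CPM (21.3 to 41.7) and in the 865 with Il5 alone at 13.9 CPM (8.22 to 21.9). In Pac1-/- cells it was at 19.2 CPM (10.7 to 31.6) with Crem alone and 21.1 CPM (12.3 to 33.7) with Il5 alone, so the order of these classes was not shared by the libraries, and their intervals overlapped in both. Pde4b was at 77.6 CPM (62.8 to 94.9) with Crem alone, 73.8 CPM (58.4 to 91.9) with Calca alone and 67.8 CPM (54.4 to 83.6) with Il5 alone, which counting error did not separate. Its highest level in WT was 124 CPM (102 to 151), in the 552 cells with Crem and Il5 but no Calca. The 237 Pac1-/- cells of that kind had 127 CPM (92.3 to 169). Pde7a was at 188 CPM (176 to 201) in WT cells with none and at 119 CPM (97.9 to 143) in those with all 3, and in Pac1-/- cells at 253 CPM (240 to 266) and 135 CPM (102 to 177). Counted this way Pde7a was lower where all 3 genes were present, and the totals of these classes, with no reference to a median gene, include the many other genes that differ between them.

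Because fewer Pac1-/- cells carried Crem, the genotypes were also set side by side within the classes. Pde4b was at 63.8 CPM in WT and 54.0 CPM in Pac1-/- cells without Crem, a ratio of -0.40 (-0.59 to -0.21), and at 94.6 and 82.3 CPM in cells with Crem, a ratio of -0.29 (-0.57 to -0.02). Over all thinned cells its ratio was -0.49 (-0.64 to -0.33). Pde4d was at -0.34 (-0.73 to 0.05) and -0.41 (-0.91 to 0.07) in the 2 classes, and at -0.57 over all thinned cells. Pde4a was at -0.54 (-1.34 to 0.25) in cells without Crem, from 33 and 26 UMIs, and at -1.14 (-2.19 to -0.21) in cells with it, from 48 and 12 UMIs. In cells without Crem no member was past the fold, with 10.8% of all genes lower past it, and in cells with Crem Pde4a alone was, with 10.4%. Pde7a was at 0.30 (0.20 to 0.40) and 0.15 (-0.04 to 0.34). In cells without and with a Calca UMI, Pde4b was at -0.37 (-0.56 to -0.19) and -0.58 (-0.88 to -0.29), inside the fold in both. Pde4a alone was past it there, at -0.69 (-1.46 to 0.06) from 39 and 26 UMIs and at -1.24 (-2.30 to -0.29) from 42 and 12 UMIs, with 10.8% and 11.3% of all genes lower past it.

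When the Pac1-/- cells were weighted to hold Crem-positive cells in the WT proportion, the ratio of Pde4b went from -0.49 to -0.40, that of Pde4d from -0.57 to -0.42 and that of Pde4a from -1.05 to -0.91. These weighted ratios carry no interval and are set against the median gene of all thinned cells. Weighting by Calca gave -0.47, -0.50 and -0.98, and weighting by Il5 gave -0.38, -0.43 and -0.81. Pde7a went from 0.27 to 0.22, 0.25 and 0.24. In cells with an Il5 UMI, Pde4d was at 0.01 (-0.52 to 0.53) and in cells without one at -0.68 (-1.05 to -0.32), past the fold as was Pde4a there, at -1.10 (-1.90 to -0.34), with 10.9% of all genes lower past it. In cells with an Il5 UMI Pde4a was inside the fold at -0.47 (-1.44 to 0.43), as was Pde4b at -0.24 (-0.51 to 0.03). The difference between these classes was not tested.

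**Figure D5:**
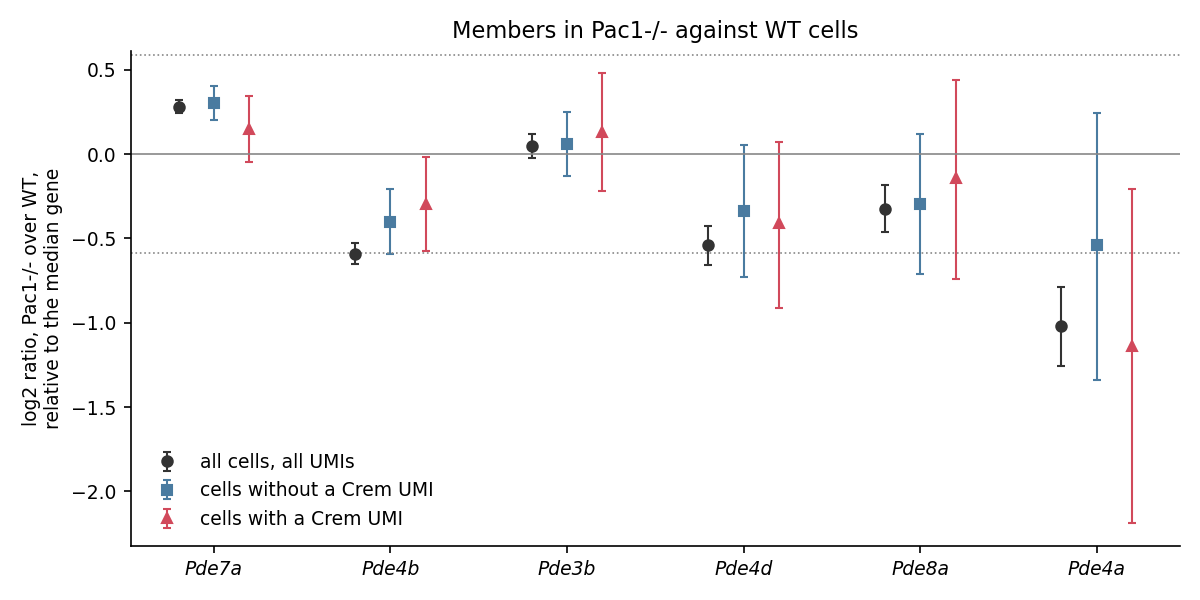
Log2 ratio of Pac1-/- over WT, relative to the median gene, for the 6 members over all cells and UMIs (circles) and in thinned cells without (squares) and with (triangles) a Crem UMI, with exact intervals and dotted lines at 1.5 times. Over all cells Pde4a stood at -1.02, Pde4b at -0.59 and Pde7a at 0.28.

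The members were read beside 53 other genes of the cAMP pathway, chosen from general knowledge with earlier results of these data known. The list includes Crem and Calca, used above to divide the cells, and Gpr65 and Icos, which the paper names among CGRP-induced genes. Its counts describe these genes only. Of the 50 with at least 50 UMIs, 14 were lower and 2 higher past the fold in Pac1-/- cells, against 12.8% and 8.22% of all genes, with a median of -0.23. Among 11 receptor genes 7 were lower. The largest differences were those of Adora2b, an adenosine receptor, at -1.77 (-2.43 to -1.14) on 81 and 29 UMIs, and of Gpr65, a proton-sensing receptor, at 407 CPM in WT and 155 CPM in Pac1-/- cells, a ratio of -1.58. Crem was at -1.21 and Nr4a3, a nuclear receptor gene that cAMP induces, at -1.18. One of the 2 higher genes was the adenylyl cyclase Adcy7 at 0.75 (0.67 to 0.83), and Adcy9 at 0.34 and Dusp1 at 0.33 lay inside the fold. None of the 14 kinase, anchor and effector genes measured was past the fold. Akap13, a kinase anchor gene, came nearest at -0.55 (-0.57 to -0.52), and its interval overlapped that of Pde4b; it was chosen after its values were seen.

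By Crem status, 11 of 42 genes of this list were higher and 3 lower past the fold in WT, against 8.75% and 7.68% of all genes, and 13 of 42 higher and 1 lower in Pac1-/- cells, against 10.3% and 9.26%. Ramp3, whose product modifies the calcitonin receptor-like receptor, led in both, at 1.82 (1.69 to 1.95) and 2.36 (2.18 to 2.54). The WT ratio of Pde4a, 1.80, was of the same size. Calca, at 1.59, Nr4a3, at 1.46, and Icos, a costimulatory receptor gene, at 1.44 (1.32 to 1.56), followed in WT, with Pde4d beside them at 1.34. Adcy7, from the 8 G protein and adenylyl cyclase genes of the list, was lower in WT cells with Crem, at -0.79 (-1.15 to -0.45). Values by Crem status of the other genes in that group are not given here, so nothing is said of cyclases as a group.

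Single cells carried few UMIs of the members. Over 60 ordered pairs of members in the 2 libraries, the share of cells with the second gene had intervals that did not overlap between cells with and without the first in 2. The first was Pde4d in Pac1-/- cells with Pde4a, at 10.5% (2.94 to 24.8) of 38 cells against 2.22% (1.88 to 2.61) of the others. It rested on 4 cells. The second was Pde7a in WT cells with Pde4a, at 32.9% (22.75 to 44.4) of 79 cells against 21.7% (20.8 to 22.68). Read in the other order, both pairs had overlapping intervals. Pde4a in Pac1-/- cells with Pde4d was at 2.68% (0.736 to 6.73) against 0.530% (0.367 to 0.740). In WT cells with Pde7a it was at 1.56% (1.02 to 2.28) against 0.888% (0.666 to 1.16). The share over all gene pairs was not computed. Of the 748 thinned WT cells with Pde4b, 2.41% (1.43 to 3.78) also had a Pde4d UMI, against 3.11% (2.71 to 3.55) of the others, and in Pac1-/- cells the shares were 3.62% (2.19 to 5.59) and 2.15% (1.80 to 2.55). Of cells with Pde7a, 9.89% in WT and 7.35% in Pac1-/- also had Pde4b, against 9.77% and 8.25% of the others. Over thinned cells, on log(1 + UMI) values and among 5058 genes with at least 1000 UMIs in each library, the genes most like a member had a Pearson r no higher than 0.09 in the lower of the 2 libraries. That value belonged to Rora and Pde4b (0.10 in WT, 0.09 in Pac1-/-). Correlations this weak in sparse counts name no partner.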

How the data were processed

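Lung ILC2s were profiled as 1 pooled WT and 1 pooled Pac1-/- library (10x Genomics 3' chemistry, version 3.1). The deposited values were raw UMI counts per gene and barcode, not normalized, which the authors made with Cell Ranger on mm10. The submitters' processing notes give version 6.1.1 and the file headers 4.0.0. The annotation release, and whether intronic reads were counted, are not given in the sources used here. Both could change levels of genes with long introns, such as Pde4d and Pde4b.

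The members and all lists were chosen with earlier results of these data known. The genes named were all 6 members, Dusp2, Crem, Calca, Il5, other catalytic phosphodiesterase genes with at least 50 UMIs, cAMP pathway genes among the 4 farthest from the median gene in each direction, and the genes most correlated with a member. The values of 1 cAMP pathway gene that this rule names are not reported here, but the counts include it. Barcodes needed at least 500 genes and at most 10% mitochondrial UMIs. No doublets were removed, since the rule has none. Counts were summed over cells and divided by the library total (CPM). CPM carry exact Poisson, shares exact Clopper-Pearson and ratios exact conditional binomial intervals. Genes compared had at least 50 UMIs over both sides. A gene at 0 on 1 side entered the median at 3 counts. The status of a cell was read from counts thinned to 1500 UMIs, the largest depth of those tried at which 90% of either library remained. Cells are not replicates, so no p-value was computed. Alternatives changed the barcode filter, doublets, marker content, scaling, median gene, thinning and status threshold. The ratios and their intervals were tested on simulated Poisson sums of genes, which hold no spread between cells. Thinning was checked for depth only. The split of cells by status, the shares and the detection of 2 genes together were not simulated. Scripts ran in Python 3.11.15 with pandas 2.3.3, scipy 1.17.1, numpy 2.4.6, matplotlib 3.10.9 and, for doublets, scikit-learn 1.9.0.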

Additional observations from a re-analysis of the deposited data

How the results depend on the processing

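Over 51 values and counts and 549 alternatives, 63 moved by more than their counting interval or by 1.5 times, and 485 by less. A smaller move could still end a call. The other 1, beyond 1.5 times in size, turned its direction. That one was Pde4a by Il5 status in Pac1-/- cells, which rested on 38 UMIs and was not among the members called. It stood at -0.24 (-3.42 to 1.88) instead of 1.65 when only barcodes with ILC2 markers and no other marker were kept. Of the 21 ratios of members inside the fold, 12 turned sign under at least 1 alternative, 11 of them of Pde3b or Pde7a and the other Pde8a by Calca in WT cells, at -0.19 instead of 0.48 when cells were thinned to 1000 UMIs. All 6 members kept their direction between the genotypes under all 11 alternatives. Of the 2 members past the fold there, only 1, Pde4a, was past it on barcodes of 1000 to 2500 genes and under 5% mitochondrial UMIs, without predicted doublets, as counted, with the median gene over genes with at least 10 UMIs or over all genes with a UMI in both libraries, with totals that leave out mitochondrial, globin and ribosomal protein genes, and on thinned cells. Pde4b then lay between -0.40 and the fold. Without cells over 2 times the median UMIs, the 2 were Pde4a and Pde4d, at -0.59, with Pde4b at -0.50. By Crem in WT, 3 instead of 4 members were past the fold as counted, not thinned and thinned to 1000 UMIs, and also on barcodes with ILC2 markers alone, where Pde4a, at 1.91, had 43 UMIs and so missed the minimum of 50. By Calca in Pac1-/- cells and by Il5 in WT cells, 1 instead of 2 members was past the fold with another random seed and as counted. The share of Pde7a in the family was 39.9% without cells over 2 times the median UMIs and 40.4% on barcodes with ILC2 markers alone in WT, and 50.04% on the latter in Pac1-/- cells. Leaving out the barcodes that both libraries hold, an alternative chosen after seeing the data, changed no count. No paired analysis was possible because each genotype had 1 library, and no replicate could be left out. Depth limits Pde4a most, with 38 UMIs in thinned Pac1-/- cells. The causes of these shifts were not tested.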
